A study of Mus musculus with 17 samples.

Results

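Tumor dormancy genes were followed across cell lines grown from the organs of MMTV-PyMT mice, a model in which the polyoma middle T oncoprotein is driven in the mammary gland and tumors spread to distal organs. The 10 genes were chosen by name, with earlier results of these data known: Nr2f1, Nr2f2, Bhlhe40, Bhlhe41, Mapk14, Ddr1, Ddr2, Gas6, Axl and Gas1. The study itself named Mapk14, Ddr1 and Ddr2 as dormancy markers on these samples. The choice of the 10 genes is thus not independent of the values. All 10 were found among the 55450 genes of the bulk RNA-seq table and among the 35849 genes of the single-cell tables, and all 10 passed the filter on low values, which kept 15348 genes with at least 1 TPM, a length-corrected share of each library's transcripts, in at least 2 bulk libraries. The bulk data comprised 14 libraries, 2 for each of 7 groups. One group came from primary tumors of the mammary fat pad (MFP). The other 6 were CD44low and CD44high cells from lung, bone marrow (BM) and lymph node (LN). The cultures came from 10 female FVB/NJ mice aged 10 to 12 weeks, all carrying MMTV-PyMT, and no group was treated. They were expanded for about a month in vitro and then sorted, the organ-derived cells as EpCAM high and either CD44low or CD44high. The 2 libraries of a group were distinct clonal isolates from different mice, so each library stands for 1 clone after culture. Single-cell RNA-seq was available for 1 library each of lung-derived CD44high (lungH), lung-derived CD44low (lungL) and LN-derived CD44high cells (lymphH).

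Disseminated tumor cells can persist for long periods without net growth, and the genes examined here are known for roles in that state. NR2F1 is an orphan nuclear receptor that directs a quiescence program in dormant tumor cells, p38 alpha (Mapk14) is the stress kinase that favors arrest over mitogenic signaling, and BHLHE40 and BHLHE41 are transcriptional repressors, the latter linked to arrest driven by p38. DDR1 and DDR2 are collagen-binding receptor kinases, GAS6 is the secreted ligand of the TAM receptors AXL, TYRO3 and MERTK, and GAS1 is a membrane protein first described in growth-arrested fibroblasts that also serves as a Hedgehog co-receptor.

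The labelled cell type was first checked against marker genes. Summed over 10 epithelial markers, the MFP libraries had 6753 and 7619 TPM and the 8 libraries from LN and BM had 2212 to 4454 TPM, whereas the 4 lung libraries had only 1.74 to 87.6 TPM. Epcam itself, on which the cells had been sorted, was listed at 0 in both lung-derived CD44low libraries and stood at 0.23 and 0.86 TPM in the lung-derived CD44high libraries, against 315 to 941 TPM elsewhere. Krt8 and Krt18, keratins of luminal epithelium, had at most 2.11 TPM in lung-derived CD44low cells and 5.26 to 58.9 TPM in lung-derived CD44high cells, against 287 TPM or more elsewhere. Epithelial markers were thus near absent in the lung-derived CD44low and low in the lung-derived CD44high libraries. The 10 fibroblast markers summed to 4789 and 5230.3 TPM in the lung-derived CD44low libraries, with 9 of 10 above 0 in each. They summed to 216 and 102.7 TPM in the lung-derived CD44high libraries and to at most 46.2 TPM in the other 10 libraries. The 7 myoepithelial or basal markers summed to 659 and 713 TPM in lung-derived CD44low cells, nearly all of it the smooth muscle actin gene Acta2 (657 and 711 TPM, at most 1.36 TPM elsewhere), to 594 and 656 TPM in MFP and to 13.2 to 62.7 TPM in the other 10 libraries. Acta2 was thus high in the same 2 libraries as Gas6 and Ddr2. The 16 cycling genes summed to 7.82 to 88.4 TPM in the lung libraries and to 582 to 5852 TPM in the rest. The 6 endothelial markers summed to at most 0.3 TPM in every library and the 8 macrophage markers to at most 39.3 TPM. Cd44 RNA did not follow the CD44 label in any organ. It had 12.2 and 21.6 TPM in CD44low and 21.95 and 12.07 TPM in CD44high cells of lung (adjusted p = 1), 147 and 82.7 against 49.04 and 52.3 TPM in LN (adjusted p = 0.42) and 43.8 and 74.9 against 50.5 and 49 TPM in BM (adjusted p = 0.93), so that in LN both CD44high libraries were below both CD44low libraries. Of the tested genes, 7.81% differed at least 4-fold between the 2 BM CD44low libraries, against 0.743% to 3.6% within the other groups. The second BM CD44low library was the higher one for 1097 of these genes and the lower one for 101. The second LN CD44low library had 582 TPM of cycling genes and the first 4387 TPM. Fewer cells of a type and less RNA per cell cannot be told apart in bulk values. The part of these marker differences in the results that follow was not tested.

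**Figure D1:**
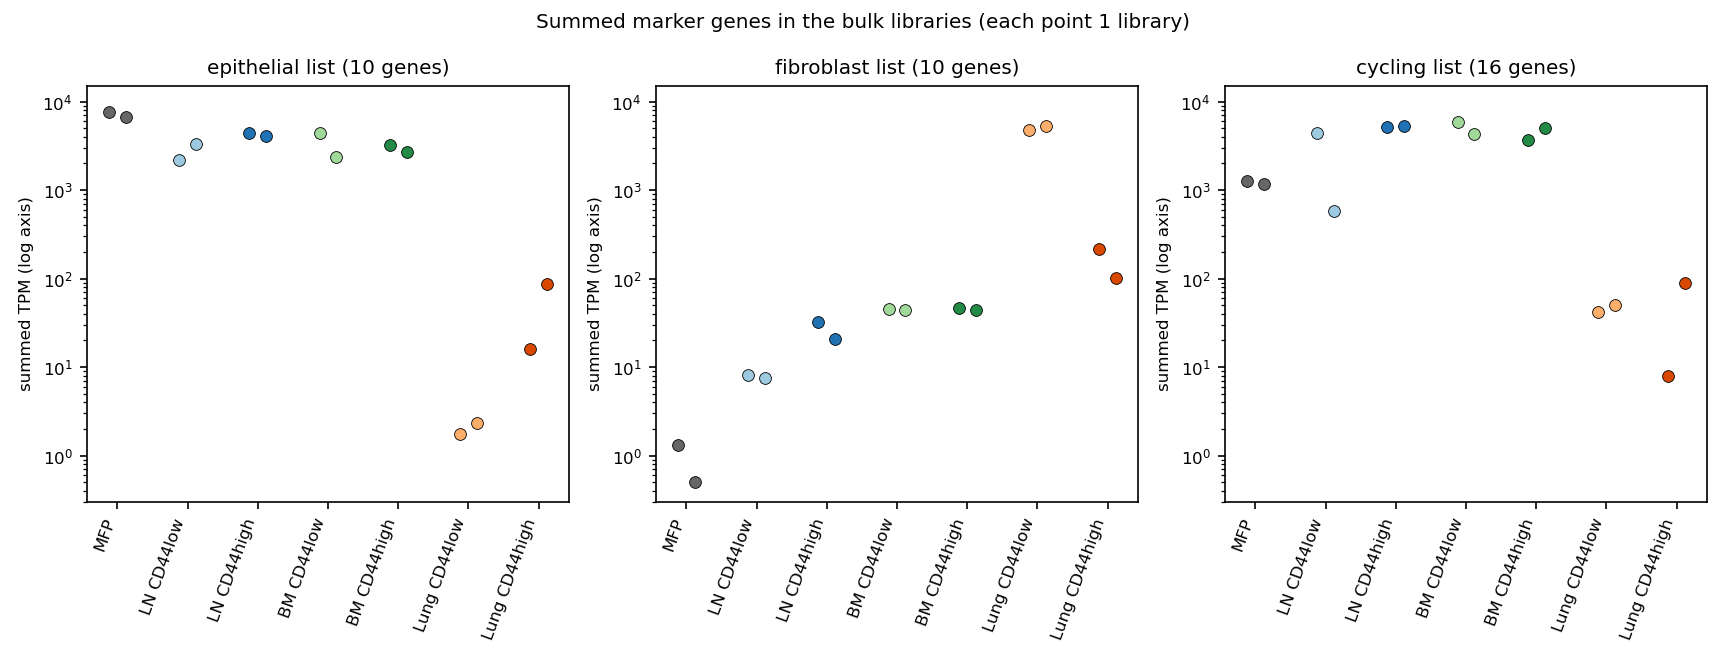
Summed TPM (log axis) of the epithelial, fibroblast and cycling marker lists in each of the 14 bulk libraries, 1 point per library, grouped by organ and CD44 status. The 4 lung-derived libraries have the lowest epithelial (1.74 to 87.6 TPM) and cycling sums (7.82 to 88.4 TPM) of all libraries, and the 2 lung-derived CD44low libraries the highest fibroblast sums.

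The promoters of the 3 genes whose CD44 difference in lung departed from that in LN and BM are given here, as the 250 bases before the RefSeq start on GRCm38.p6, 5′ to 3′ on the strand of the gene. All 3 lie on the minus strand, and the capitals mark motifs found on either strand: GC boxes (GGGCGG) and a TATA box (TATAAA). The region is chr8:13494536-13494785 for Gas6, chr13:78198874-78199123 for Nr2f1 and chr1:170088945-170089194 for Ddr2. The Ddr2 start in RefSeq lies 21818 bases inside the GENCODE gene, whose own start was not used.
Gas6: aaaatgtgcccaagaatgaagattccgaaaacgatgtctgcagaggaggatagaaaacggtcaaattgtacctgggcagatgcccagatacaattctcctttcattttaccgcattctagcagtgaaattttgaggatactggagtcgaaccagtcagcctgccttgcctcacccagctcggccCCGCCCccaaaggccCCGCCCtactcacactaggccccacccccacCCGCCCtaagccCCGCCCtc
Nr2f1: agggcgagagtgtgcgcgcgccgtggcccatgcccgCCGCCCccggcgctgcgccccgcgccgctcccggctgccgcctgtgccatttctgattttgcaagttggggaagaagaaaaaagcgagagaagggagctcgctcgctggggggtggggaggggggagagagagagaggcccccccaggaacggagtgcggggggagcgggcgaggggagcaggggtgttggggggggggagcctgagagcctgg
Ddr2: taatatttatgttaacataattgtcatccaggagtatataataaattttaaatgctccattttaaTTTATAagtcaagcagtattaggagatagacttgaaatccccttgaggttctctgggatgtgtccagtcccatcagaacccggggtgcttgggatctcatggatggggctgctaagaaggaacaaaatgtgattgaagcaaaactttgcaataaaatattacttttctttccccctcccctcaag
For Nr2f1, the more upstream of 2 RefSeq starts is shown. The 3 stretches differ in base composition. Nr2f1 has 72% GC with 22 CpG dinucleotides and 1 GC box, and Gas6 has 54.8% GC with 10 CpG and 4 GC boxes close to the start. Ddr2 has 37.6% GC with 1 CpG, no GC box and 1 TATA box match, on the opposite strand and far from the start. Since the Ddr2 stretch lies inside the GENCODE gene, it may not be the promoter in use, and its contrast with the other 2 is limited to the bases shown. The other Nr2f1 promoter, not shown, has 39.6% GC, 2 CpG and no GC box. Over 32851 mouse promoters of the same length, the median was 52.4% GC and 6 CpG, 32.7% held a GC box and 12.4% a TATA box. The table held promoters for 9 of the 10 genes, 14 in all, since Ddr1, Mapk14 and Nr2f1 have several starts, and none for Bhlhe40. A GC box was found in 9 of the 14. The AGGTCA motif bound by many nuclear receptors was found in none of the 14 and in 14% of all promoters, the E-box CACGTG only in Bhlhe41 among the 14 (6.02% of all), and the AP-1 motif TGANTCA in 1 promoter of Ddr1 (6.75% of all). These are matches of letters and carry no information on binding.

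The number of dormancy genes that passed the test differed widely between comparisons. Values were compared as log2(TPM + 1) with limma, and genes whose p, adjusted by Benjamini and Hochberg's method for all 15348 genes, was under 0.05 were called, whatever their fold. The 2 libraries of a group are separate clones, and no p-value here measures the spread between more than 2. Against MFP, 8 of the 10 genes were called in lung-derived CD44low cells, all higher, where 45% of all genes tested were called (21.9% higher, 23.1% lower). In CD44high cells of lung, 4 were higher (Nr2f1, Nr2f2, Axl and Gas1) and Bhlhe40 was lower, against 36.1% of all genes (14.9% higher, 21.2% lower). The median difference of the 10 genes was 2.15 in lung-derived CD44low cells and 0.90 in CD44high cells, and that of all genes 0.00 and -0.04. In both BM groups, Nr2f1, Ddr2, Gas6 and Gas1 were called higher and Bhlhe40 lower. Over all genes, 23.2% were called in BM CD44low cells (9.36% higher, 13.8% lower) and 27% in BM CD44high cells (8.38% higher, 18.6% lower). In both LN groups, Ddr2 was called higher and Bhlhe40 lower and none of the other 8 genes was called. Over all genes, 14% were called in LN CD44low cells (4.5% higher, 9.51% lower) and 23.8% in LN CD44high cells (5.87% higher, 17.9% lower), so that 2 of 10 is near the background. These 6 comparisons share the same 2 MFP libraries. The count of 8 in lung-derived CD44low cells fell to 4 or 3 without the first or second library of that group and to 4 or 5 without the first or second MFP library, and Nr2f1, Ddr2 and Gas6 were called in each of these fits, which called 29.3% to 33.4% of all genes.

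Between CD44high and CD44low cells of one organ, none of the 10 genes was called in LN or in BM by limma, where 0.378% and 0.15% of all genes were called. At an unadjusted p under 0.05, 0 of the 10 passed in LN and 2 in BM, Bhlhe40 and Mapk14, where 10.1% and 7.4% of all genes passed. Without the first BM CD44low library, 4 were called in BM, all lower in CD44high cells (Bhlhe41, Mapk14, Ddr1 and Gas1), and the share over all genes rose to 15.6%. In lung, 5 of the 10 were called, against 30.7% of all genes (12.2% higher, 18.5% lower), with Nr2f1 higher and Bhlhe40, Mapk14, Ddr2 and Gas6 lower in CD44high cells. Averaged over the 3 organs, 4 were called, against 17.3% of all genes (3.59% higher, 13.7% lower), namely Nr2f1 higher and Bhlhe40, Ddr2 and Gas6 lower. Set against LN and BM together, lung-derived cells had 7 of the 10 genes higher and Ddr2 lower, but 59.9% of all genes were called in this comparison (35.9% higher, 24% lower), so that a count of 8 is not far above the background. Lung here is the mean of its CD44low and CD44high groups, and a call can rest on 1 of them. When libraries were rescaled by their median ratio, the split of all genes in this comparison turned from 5511 higher and 3678 lower to 4536 higher and 4713 lower, and the median of all genes moved from 0.20 to -0.03. None of the 8 member calls was lost under that scaling. The CD44 difference in lung departed from that in LN for 3 of the 10 genes, against 19.5% of all genes (8.93% higher, 10.6% lower), and from that in BM for the same 3, against 15.3% of all genes (6.43% higher, 8.86% lower). These were Nr2f1, higher, and Ddr2 and Gas6, lower. In mean log2(TPM + 1), 5 of the 10 genes were highest in lung-derived CD44low cells and 3 in lung-derived CD44high cells, where 27.6% and 20.9% of all genes were highest. The exceptions were Bhlhe40, highest in MFP, and Gas1, highest in BM CD44low cells.

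**Figure D2:**
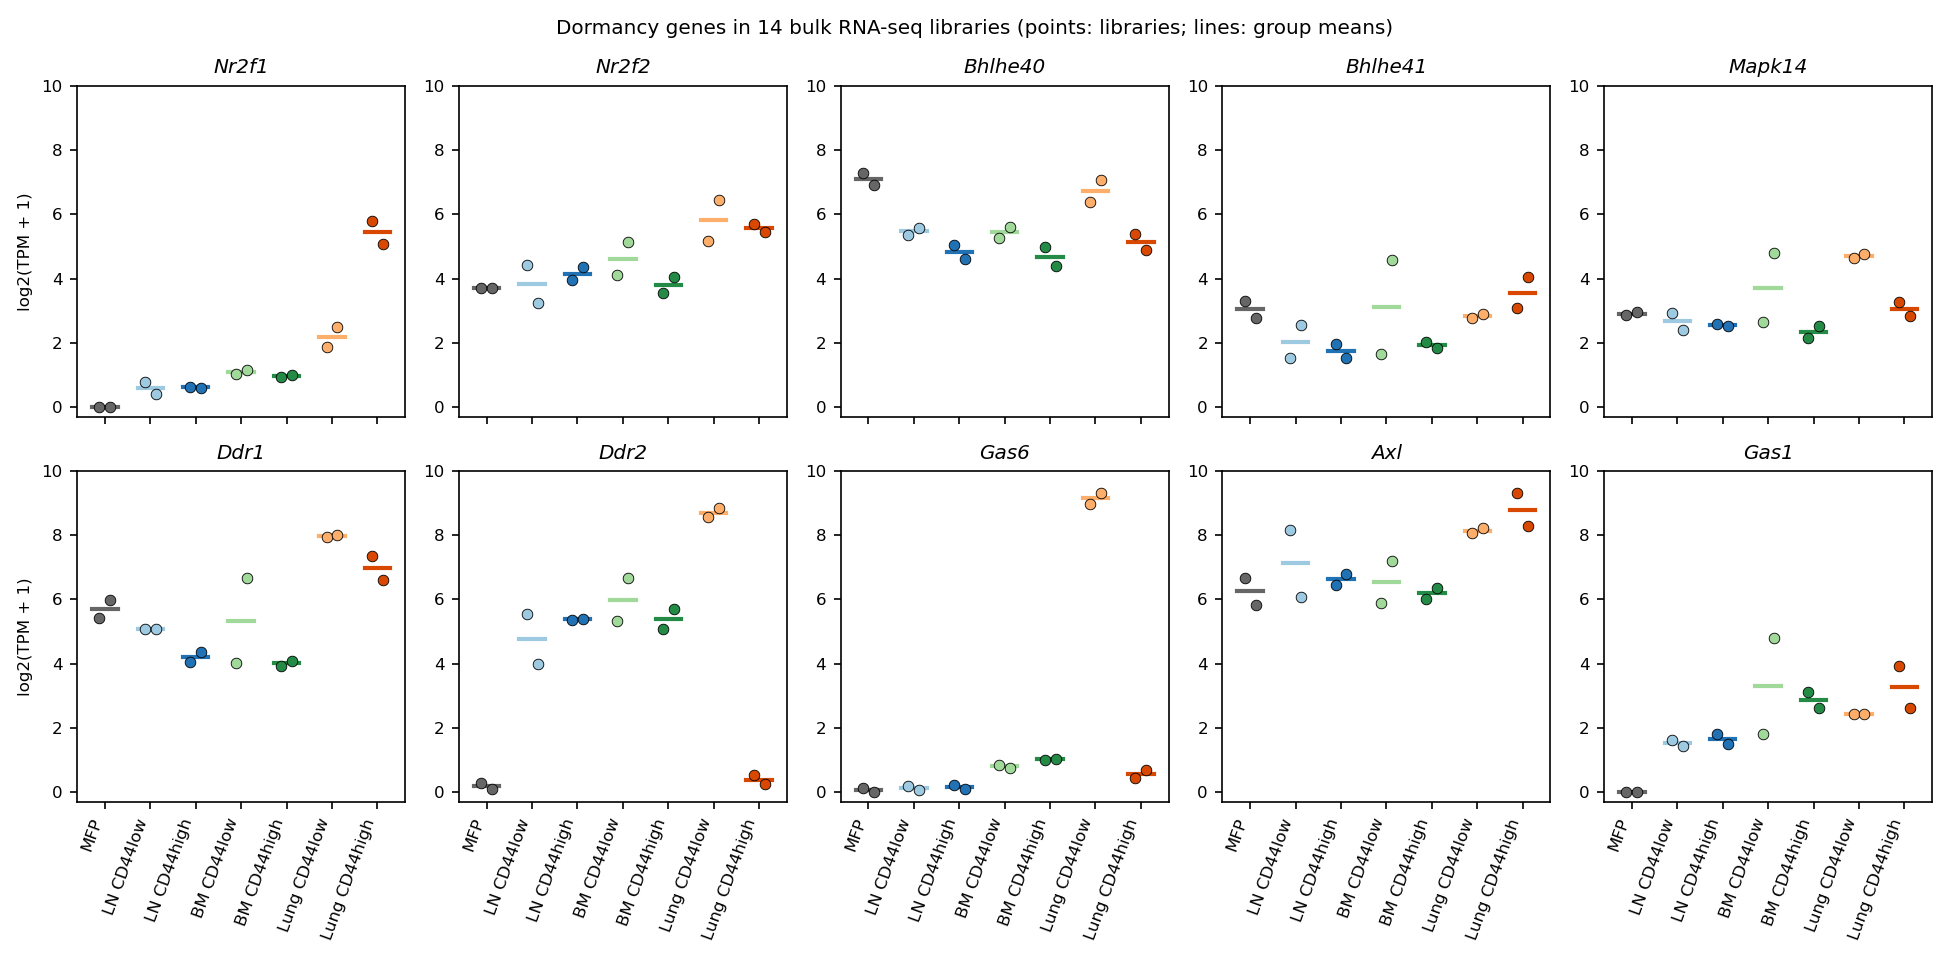
Level of each dormancy gene as log2(TPM + 1) in the 14 bulk libraries, with 1 point per library and a line at the mean of the 2 libraries of a group. Gas6 is above 8 only in lung-derived CD44low cells, Ddr2 is near 0 in MFP and lung-derived CD44high cells, and Nr2f1 is highest in lung-derived CD44high cells.

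**Figure D3:**
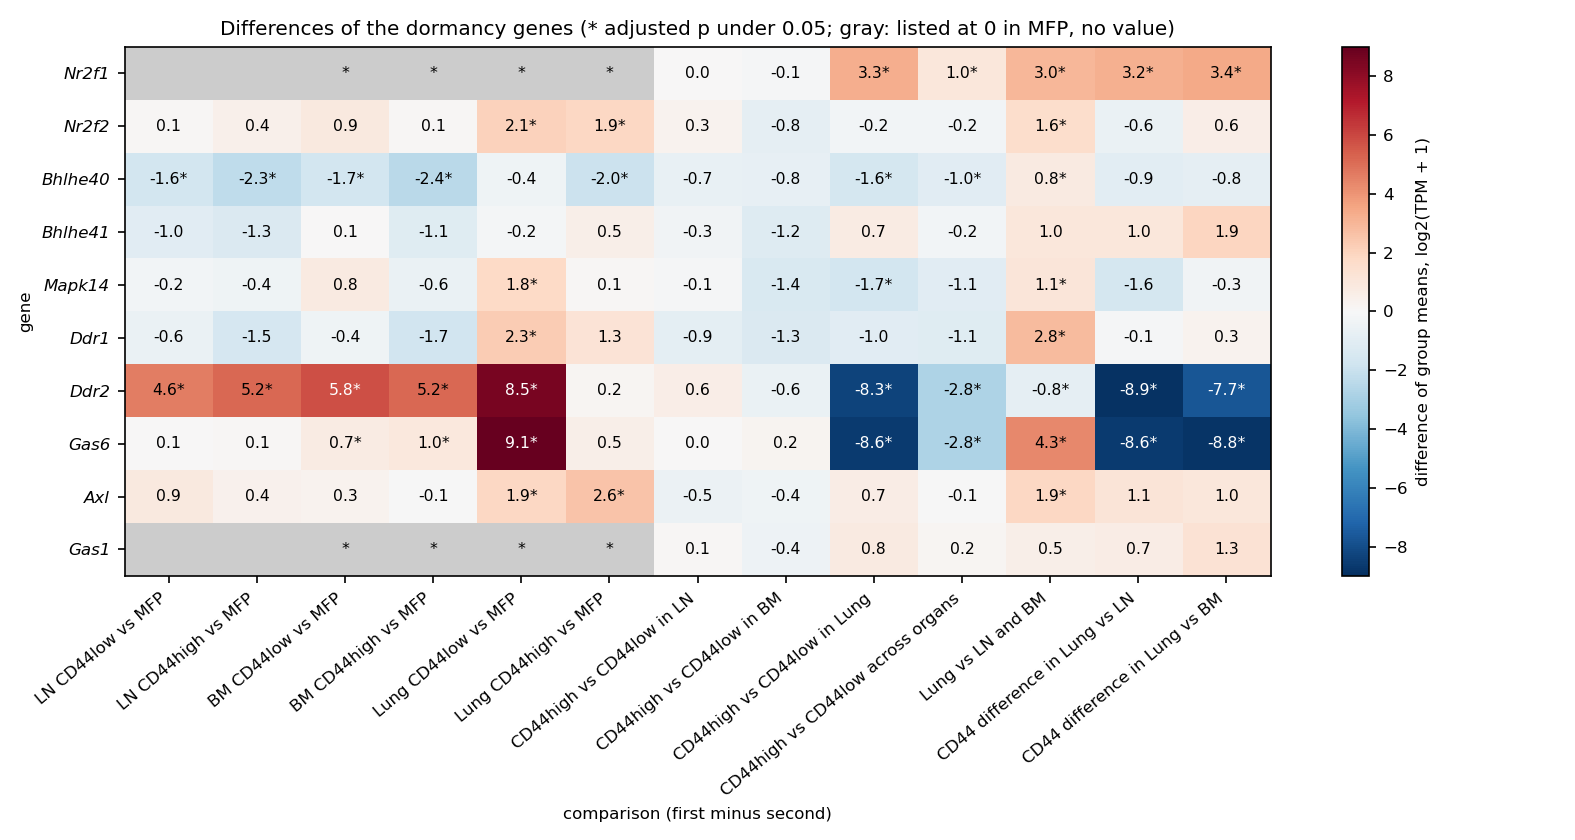
Difference of group means in log2(TPM + 1) for the 10 genes (rows) in 13 comparisons (columns), with an asterisk at an adjusted p under 0.05 by limma and gray where the gene is listed at 0 in both MFP libraries, so that no difference is given. Gas6 and Ddr2 are 9.08 and 8.51 above MFP in lung-derived CD44low cells, and -8.58 and -8.31 for CD44high against CD44low cells of lung.

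Gas6 (ENSMUSG00000031451.6, chromosome 8 of mm10 from 13465374 to 13494490, minus strand) was close to absent outside a single group. It had 501 and 640.4 TPM in the 2 lung-derived CD44low libraries and 0.36 and 0.62 TPM in the lung-derived CD44high libraries. The MFP values were 0.10 and 0.00 TPM, with 0.05 to 0.17 TPM in the 4 LN libraries and 0.70 to 1.04 TPM in the 4 BM libraries. The lung-derived CD44low libraries thus stood apart from all 12 others without overlap. CD44high cells of lung were lower than CD44low cells by -8.58 ± 0.23 (SE) on the log2(TPM + 1) scale (adjusted p = 5.3e-09). This CD44 difference departed from that in LN by -8.61 ± 0.33 (adjusted p = 1.4e-07) and from that in BM by -8.80 ± 0.33 (adjusted p = 1.3e-07). Both BM groups were called higher than MFP, although at around 1 TPM, with adjusted p = 0.046 for CD44low and 0.013 for CD44high cells. The call for BM CD44low cells was lost with no filter on low values (adjusted p = 0.079) and in 10 of 14 fits that left out 1 library (adjusted p = 0.052 to 0.21). That for BM CD44high cells was lost in 4 of the 14, without either library of either group compared (adjusted p = 0.057 to 0.089).

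Axl, the receptor (ENSMUSG00000002602.16, chromosome 7 from 25757273 to 25788705, minus strand), was present in every library. It had 265 and 301 TPM in lung-derived CD44low and 638 and 309.8 TPM in lung-derived CD44high cells. In MFP it had 102 and 55.4 TPM, and in the 8 LN and BM libraries 58.1 to 287 TPM. The lung libraries thus overlapped the first LN CD44low library (287 TPM) and no other. Against LN and BM, Axl was higher in lung by 1.85 ± 0.41 (adjusted p = 0.0031). Against MFP it was higher by 2.55 ± 0.67 in CD44high cells (adjusted p = 0.013) and by 1.90 ± 0.67 in CD44low cells (adjusted p = 0.041), and the latter call was lost in 8 of 14 fits that left out 1 library, with an adjusted p of 0.21 without the second MFP library. The former was lost without that library and without the first lung-derived CD44high library (adjusted p = 0.095 and 0.11). The CD44 difference in lung was 0.65 ± 0.67 (adjusted p = 0.52). Ligand and receptor were therefore both high in lung-derived CD44low cells, whereas lung-derived CD44high cells had the receptor with under 1 TPM of Gas6.

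Among the other TAM genes, the second ligand Pros1 (protein S) behaved unlike Gas6. It had 125 and 169 TPM in lung-derived CD44low and 202 and 196 TPM in CD44high cells, and at most 0.86 TPM elsewhere, so that it was higher in lung than in LN and BM by 6.86 ± 0.15 (adjusted p = 2.0e-09). The CD44 difference in lung was 0.45 ± 0.25 (adjusted p = 0.20). Tyro3 had 2.26 to 6.62 TPM over all libraries and Mertk at most 1.27 TPM. Neither passed the test between lung and LN and BM, so that 1 of these 3 genes was higher and none lower, where 35.9% and 24% of all genes were. Mertk was lower in CD44high than in CD44low cells of lung (-0.95 ± 0.19, adjusted p = 0.0042), at 0.00 and 0.04 against 0.72 and 1.27 TPM.

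Ddr2 (ENSMUSG00000026674.9, chromosome 1 from 169972307 to 170110762, minus strand), a receptor for fibrillar collagens, stood at 3 levels. It was near 0 in MFP, at 0.21 and 0.07 TPM, and in lung-derived CD44high cells, at 0.44 and 0.19 TPM. It had 376 and 458 TPM in lung-derived CD44low cells, and 14.95 to 46.2 TPM in LN and 32.9 to 99.9 TPM in BM. Taking LN and BM as one, the levels did not overlap. Against MFP, the difference was 8.51 ± 0.52 in lung-derived CD44low cells (adjusted p = 7.7e-07) and 4.59 to 5.80 in the LN and BM groups, all called, whereas it was 0.20 ± 0.52 in lung-derived CD44high cells (adjusted p = 0.83). CD44high cells of lung were lower than CD44low cells by -8.31 ± 0.52 (adjusted p = 1.4e-06), while the difference was 0.60 ± 0.52 in LN and -0.60 ± 0.52 in BM (adjusted p = 0.79 and 0.72). The lung difference departed from that in LN by -8.91 ± 0.74 and from that in BM by -7.71 ± 0.74 (adjusted p = 2.1e-05 and 5.8e-05). Because the 2 lung groups lie on either side of LN and BM, their mean was only 0.84 below (adjusted p = 0.044), a call that was lost under 11 of the 14 fits with 1 library left out.

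Ddr1 (ENSMUSG00000003534.17, chromosome 17 from 35681567 to 35704621, minus strand), the paralog found mainly in epithelial cells, was high in both lung groups. It had 245 and 255 TPM in lung-derived CD44low and 162 and 96.2 TPM in CD44high cells. MFP had 42.3 and 62.4 TPM, LN 15.5 to 33.0 TPM, and BM 14.3 to 15.98 TPM except for the second CD44low library at 100.4 TPM. That library overlapped the lung-derived CD44high cells and all others were below them. Lung exceeded LN and BM by 2.81 ± 0.40 (adjusted p = 0.00020). Against MFP, Ddr1 was called in lung-derived CD44low cells (2.26 ± 0.65, adjusted p = 0.018) and not in CD44high cells (1.26 ± 0.65, adjusted p = 0.17). The call was lost without either lung-derived CD44low library (adjusted p = 0.070 and 0.076) and without the first MFP library (adjusted p = 0.10). Without either BM CD44low library, which takes the spread between these 2 libraries out of the fit, Ddr1 was called higher in lung-derived CD44high cells as well (adjusted p = 0.0052), and lower than MFP in LN CD44high and BM CD44high cells (adjusted p = 0.0037 and at most 0.0019, against 0.13 and 0.083 with all libraries). Without the second, it was also called lower in BM CD44low cells (adjusted p = 0.0089). The CD44 difference in lung was -0.999 ± 0.654 (adjusted p = 0.29) and passed without either BM CD44low library (adjusted p = 0.018). So the 2 receptors differed in lung-derived CD44high cells, where Ddr1 had 96.2 TPM or more and Ddr2 at most 0.44 TPM.

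The 12 collagen genes that supply ligands for these receptors split in lung. In CD44high against CD44low cells of lung, 8 of 12 were lower and none higher, where 18.5% of all genes were called lower and 12.2% higher, with a median difference of -3.58 against -0.01 over all genes. Col1a1 had 83.3 and 257 TPM in lung-derived CD44low and 0.08 and 0.02 TPM in CD44high cells (difference -7.13 ± 0.54, adjusted p = 5.4e-06). Col5a2 was lower by -6.21 ± 0.22 and Col3a1 by -4.44 ± 0.43. Against LN and BM, 4 were higher and 4 lower in lung, near the 35.9% and 24% of all genes. Col2a1 was the largest fall, with 49.7 to 299.7 TPM over the 8 libraries of LN and BM and at most 0.14 TPM in lung. Col1a1, Col1a2 and Col3a1 are also in the fibroblast marker list.

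Nr2f1 (ENSMUSG00000069171.14, chromosome 13 from 78188973 to 78199757, minus strand) was the only one of the 10 genes that was called higher in CD44high than in CD44low cells of lung. It had 54.6 and 33.2 TPM in lung-derived CD44high and 2.69 and 4.65 TPM in lung-derived CD44low cells. LN had 0.32 to 0.72 TPM and BM 0.90 to 1.25 TPM, and it was listed at 0 in both MFP libraries. The groups were ordered lung CD44high, lung CD44low, BM, LN and MFP with no overlap between these steps. The CD44 difference in lung was 3.25 ± 0.30 (adjusted p = 2.6e-05), and it exceeded that in LN by 3.23 ± 0.43 (adjusted p = 0.00052) and that in BM by 3.39 ± 0.43 (adjusted p = 0.00039). Against MFP, the gene was called in lung and BM but not in LN (adjusted p = 0.25 and 0.18), and no fold is given since it is listed at 0 in MFP. The call for BM CD44high cells was lost in 6 of 14 fits that left out 1 library (adjusted p = 0.062 to 0.15) and that for BM CD44low cells in 3 (adjusted p = 0.086 to 0.12), among them those without either MFP library. With a pseudocount of 0.1, both LN groups were called too (adjusted p = 0.0053 and 0.0030). An antisense transcript, A830082K12Rik, shares 123 exon bases with Nr2f1 and had 17.3 and 18.6 TPM in lung-derived CD44high cells, 4.09 and 5.79 TPM in CD44low cells, 2.02 to 3.63 TPM in LN and BM and 0 in MFP. SMART-seq2 libraries do not keep strand, so reads in the shared bases cannot be assigned to one of them.

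Its paralog Nr2f2 (ENSMUSG00000030551.14, chromosome 7 from 70351944 to 70366735, minus strand) rose in lung without such a CD44 difference. It had 35.4 and 86.6 TPM in lung-derived CD44low and 50.9 and 42.9 TPM in CD44high cells. MFP had 12.04 and 12.18 TPM, LN 8.53 to 20.4 TPM and BM 10.6 to 34.1 TPM, so that every lung library was above all others. Lung exceeded LN and BM by 1.60 ± 0.31 (adjusted p = 0.0015), and MFP by 2.11 ± 0.51 in CD44low and 1.86 ± 0.51 in CD44high cells (adjusted p = 0.0074 and 0.017). The last call was lost without either library of either group (adjusted p = 0.052 to 0.090), and that for CD44low cells without the second lung-derived CD44low library (1.47, adjusted p = 0.072). The CD44 difference in lung was -0.24 ± 0.51 (adjusted p = 0.79). Of the 6 retinoic acid receptor, SOX9, NANOG and Nr2f6 genes listed as partners, 5 were tested, and Sox9 alone was called between lung and LN and BM, lower by -1.15 ± 0.25 (adjusted p = 0.0026), where 59.9% of all genes were called. Sox9, a transcription factor that NR2F1 is known to induce, had 57.7 to 74.3 TPM in lung and 111 to 358 TPM in LN and BM. In CD44high against CD44low cells of lung, 3 of the 5 were lower (18.5% of all genes), among them the retinoic acid receptor Rarg and Nr2f6, another orphan receptor of the same family (adjusted p = 0.026 and 0.035).

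Mapk14 (ENSMUSG00000053436.15, chromosome 17 from 28691329 to 28748406, plus strand) was highest in lung-derived CD44low cells. These had 24.2 and 26.4 TPM and lung-derived CD44high cells 8.60 and 6.11 TPM. MFP had 6.31 and 6.78 TPM, LN 4.32 to 6.61 TPM, and BM 3.46 to 5.23 TPM except for the second CD44low library at 27.0 TPM. This 1 BM library reached the level of the lung-derived CD44low cells. The gene was higher than MFP by 1.80 ± 0.56 (adjusted p = 0.025) in lung-derived CD44low cells, and lower in CD44high than in CD44low cells of lung by -1.67 ± 0.56 (adjusted p = 0.047). Lung exceeded LN and BM by 1.06 ± 0.34 (adjusted p = 0.022). None of these 3 calls held throughout. The first was lost without either library of either group (adjusted p = 0.082 to 0.10), and the second was lost in 12 of 14 fits with 1 library left out, being kept only without either BM CD44low library. The third was lost without either lung-derived CD44low library (adjusted p = 0.056 and 0.069) and without the first lung-derived CD44high library (adjusted p = 0.085).

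Of 13 other genes of the p38 pathway, 5 were higher and 4 lower in lung than in LN and BM, near the 35.9% and 24% of all genes, with a median of 0.29 against 0.20 over all genes. Dusp1, a phosphatase that inactivates p38, had 379 to 1060 TPM in lung and 18.1 to 55.3 TPM in LN and BM, a difference of 4.43 ± 0.21 (adjusted p = 9.5e-08). Mapk11 (p38 beta) was lower in lung by -1.77 ± 0.17, with all 4 lung libraries below all 8 of LN and BM. For Mapk13 (p38 delta) the mean of the lung groups was lower by -1.84 ± 0.23, but they lay on either side of LN and BM. It had 69.1 and 78.6 TPM in CD44low and 0.58 and 2.07 TPM in CD44high cells of lung (difference -5.08 ± 0.38, adjusted p = 4.6e-06), against 28.8 to 64.6 TPM in LN and BM. Map3k5 (ASK1, a kinase upstream of p38) was higher in lung by 1.51 ± 0.28.

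Bhlhe40 (ENSMUSG00000030103.11, chromosome 6 from 108660629 to 108666925, plus strand) was the only one of the 10 genes called lower than MFP with all libraries in the fit. The MFP libraries had 155 and 119 TPM, lung-derived CD44low cells 83.0 and 133 TPM, and 19.8 to 47.6 TPM in the other 10 libraries. Lung-derived CD44low cells overlapped MFP and no other group did. It was lower than MFP in 5 of 6 groups, by -1.62 to -2.41, and not in lung-derived CD44low cells (-0.37 ± 0.32, adjusted p = 0.38). The call for LN CD44low cells was lost without the first MFP library (adjusted p = 0.072). CD44high cells were lower than CD44low cells in lung by -1.59 ± 0.32 (adjusted p = 0.0041) and on average over the 3 organs by -0.999 ± 0.183 (adjusted p = 0.0050). Every CD44high library was below every CD44low library of the same organ. The mean of the lung groups exceeded LN and BM by 0.83 ± 0.19 (adjusted p = 0.0043), while CD44high cells of lung, at 40.6 and 28.8 TPM, lay inside the range of LN and BM. Leaving out the second lung-derived CD44low library gave -1.25 in lung (adjusted p = 0.0501).

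Bhlhe41 (ENSMUSG00000030256.11, chromosome 6 from 145858243 to 145865558, minus strand) was called by limma in none of the 13 comparisons, nor was its unadjusted p under 0.05 in any of them (0 of 13). It ranged from 1.86 to 22.9 TPM, with the highest value in the second BM CD44low library, whose partner had 2.12 TPM. Without that library, Bhlhe41 was higher in lung than in LN and BM by 1.36 (adjusted p = 0.0019), against 0.99 ± 0.48 (adjusted p = 0.10) with it. Of its 31-base exon words, 17.7% are shared with other genes, nearly all with the gene model Gm43909, so that its level may include reads that belong there. Gm43909 itself was listed at 0.88 TPM at most.

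Gas1 (ENSMUSG00000052957.8, chromosome 13 from 60174405 to 60177365, minus strand) was listed at 0 in both MFP libraries and was detected in every other library. It had 1.73 to 2.54 TPM in LN, 7.74 and 5.10 TPM in BM CD44high cells, 2.49 and 27.0 TPM in BM CD44low cells, 4.41 and 4.43 TPM in lung-derived CD44low cells and 14.1 and 5.15 TPM in lung-derived CD44high cells. Against MFP, it was called in both BM and both lung groups (adjusted p = 0.0089 to 0.029) but not in LN (adjusted p = 0.25 and 0.16). Leaving out 1 library, the call was lost in 4 of 14 fits for BM CD44high and lung-derived CD44low cells, 2 for BM CD44low and 1 for lung-derived CD44high cells, each time a library of the groups compared (adjusted p = 0.068 to 0.12). Both LN groups were called with a pseudocount of 0.1 (adjusted p = 0.011 and 0.0060). The 18.2% of its 31-base exon words that are shared with the gene model Gm48488, itself listed at 0.87 TPM at most, leave its level uncertain. Lung did not differ by the test from LN and BM (0.51 ± 0.48, adjusted p = 0.38). This result leaned on the second BM CD44low library, without which the difference was 0.89. Among 9 Hedgehog receptors and targets, 7 were tested and 4 were higher in lung than in LN and BM, none lower, where 35.9% of all genes were called higher and 24% lower. On the mean of the lung groups, the co-receptors Cdon and Boc rose by 2.31 ± 0.42 and 2.07 ± 0.31 (adjusted p = 0.00099 and 0.00027). Cdon, like Nr2f1, was higher in CD44high than in CD44low cells of lung (3.05 ± 0.69, adjusted p = 0.0081), with 84.1 and 29.0 TPM against 3.56 and 7.17 TPM. The transcription factor Gli2 was at 0 in both lung-derived CD44high libraries and at 9.68 and 8.59 TPM in CD44low cells.

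Other dormancy-linked genes were read for comparison. Of 9 secreted factors and receptors, 8 were higher and 1 was lower in lung than in LN and BM, with a median of 3.43 against 0.20 over all genes. Of all genes, 35.9% were called higher and 24% lower in this comparison, which is also the background of the counts that follow. Bmp4, a growth factor of the BMP family, had 840.2 and 1055 TPM in lung-derived CD44low cells, 128 and 216 TPM in CD44high cells and at most 0.16 TPM in LN and BM. The chemokine Cxcl12 had 1687 and 2522 TPM in lung-derived CD44low cells, 30.04 and 36.23 TPM in CD44high cells and at most 0.01 TPM in LN and BM. Wnt5a went the other way and was higher in CD44high than in CD44low cells of lung, with 49.3 and 31.3 against 2.45 and 3.60 TPM, beside 0.54 and 0.06 TPM in MFP and 0 in LN and BM. Tgfbr3, a TGF-beta co-receptor, rose by 3.85 ± 0.36. Of 11 cyclin-dependent kinase inhibitors and quiescence genes, 6 were higher and 4 lower in lung. Cdkn2b (p15) had 113 and 71.6 TPM in lung-derived CD44low cells, at most 0.49 TPM in CD44high cells and at most 0.16 TPM in LN and BM, but also 66.2 and 51.9 TPM in MFP. Gas7 fell by -2.77 ± 0.30. Ndrg1 was lower on the mean of the lung groups by -2.58 ± 0.71, with 0.04 and 0.75 TPM in CD44high cells but 66.5 and 61.2 TPM in CD44low cells of lung, inside the 18.1 to 298 TPM of LN and BM. Rbl2 (p130), a pocket protein of quiescent cells, rose by 1.86 ± 0.21. The study named 7 dormancy genes on these samples besides Mapk14, Ddr1 and Ddr2, again a choice that is not independent of the values. Of these 7, 4 were higher in lung (Fn1, Thbs1, Mylk and Ctsd, by 1.43 to 3.46) and 3 lower. Thbs1 is also one of the secreted factors and receptors, and Sox9 one of the partner genes above, so their calls are counted in both lists. Mylk was high in lung-derived CD44low cells alone, at 64.2 and 78.8 TPM against 0.07 to 1.57 TPM in all others. All 16 cycling genes were lower in lung, with a median of -4.57, led by Birc5 at 345 to 4172 TPM in LN and BM and 0.45 to 8.88 TPM in lung. The single-cell libraries of CD44high cells did not show this fall, with 21.3 per 10000 for these genes in lungH and 20.2 in lymphH.

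For the 9 genes called at least once, the genes with the nearest profile over the 14 libraries were taken, up to 3 each, by the root mean square difference of centred log2(TPM + 1). For Gas6 they were Cemip (0.31), Cdo1 (0.33) and Rcn3 (0.34), over a span of 9.33 on the log2 scale. Cemip had 342 and 415 TPM in lung-derived CD44low cells and at most 0.33 TPM in all others. For Nr2f1 they were Il6ra (0.38), Pappa2 (0.38) and Chrd (0.39), and Il6ra had 105 and 79.8 TPM in lung-derived CD44high, 7.13 and 10.0 TPM in CD44low and 1.39 to 6.66 TPM in other cells. For Ddr2 they were C920009B18Rik (0.72), Pon3 and Ldhb (up to 1.01), over a span of 8.74. For Mapk14, Tab3 (0.17) and E2f4 (0.18) were among them, over a span of 2.65. The others were Ahcyl1, Tgfbr2 and Ctdsp2 for Nr2f2 (0.31 to 0.34), Esyt1, Arhgef5 and Ttc12 for Bhlhe40 (0.29 to 0.37), Tmem127, Sema3f and Fndc3b for Ddr1 (0.31 to 0.36), Hip1, Arhgap23 and Slc39a10 for Axl (0.36 to 0.39), and Mtss1l, Rgma and Arhgef19 for Gas1 (0.53 to 0.61).

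Single-cell libraries held 1236 cells in lungH, 348 in lungL and 2562 in lymphH after filtering, with medians of 557, 4011 and 585 counts per cell. The study states fewer cells for each under the same filter, but its counts per library do not add up to the larger total that it also states. It describes replicate isolates per sample, which these tables do not tell apart. The labels of lungH and lungL name replicate 1, and that of lymphH names no replicate. With 1 library per group, no test was possible. Levels are given as counts per 10000 over all kept cells with exact Poisson 95% intervals, which cover counting error only, and they are not corrected for gene length, so genes are not compared with one another. Markers were read in the single-cell libraries as well. The 16 cycling genes summed to 21.3 per 10000 in lungH, 6.69 in lungL and 20.2 in lymphH. Their bulk sums were 7.82 and 88.4 TPM in lung-derived CD44high cells and 5141 and 5340 TPM in LN CD44high cells. That gap was not seen between lungH and lymphH, and the cause was not tested. In lungL, Acta2 had 45.6 per 10000, against 0.059 in lungH and no count in lymphH, so that it was high in the lung-derived CD44low cells as in bulk. The fibroblast list summed to 22.1 in lungL, while Lum, at 362 and 217 TPM in the bulk lung-derived CD44low libraries, had no count. The epithelial list summed to 4.28 in lungH, 0.88 in lungL and 9.72 in lymphH. The part of these markers in the levels below was not tested.

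Gas6 and Ddr2 were highest in lungL among the single-cell libraries. Gas6 had 162 counts in lungL, 0.73 per 10000 (0.62 to 0.85), and none in lungH or lymphH, where 0 counts allow up to 0.0136 and 0.00567 per 10000. It was found in 73 of 348 lungL cells (20.98%, exact binomial 95% interval 16.8% to 25.6%) and in 0 of 1236 lungH cells, which allows a share of cells with a count of up to 0.243%. Thinned to 500 counts per cell, 8 of 314 lungL cells (2.55%) and 0 of 948 lungH cells had a count, which allows up to 0.316%. At these depths such limits hold for cells with a count and not for cells that express the gene. No cell type known to lack Gas6 was available to give a background share for lungL. Ddr2 had 314 counts in lungL, 1.41 per 10000 (1.26 to 1.58), 344 counts in lymphH, 0.65 (0.58 to 0.72), and 1 count in lungH. For Ddr2, that order is the one of the bulk groups, where lung-derived CD44low cells were above LN CD44high and lung-derived CD44high cells.

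Nr2f1 had the opposite order of the bulk lung groups. It had 0.66 per 10000 (0.56 to 0.78) in lungL, 0.23 (0.17 to 0.30) in lungH and 0.062 (0.043 to 0.088) in lymphH, so that lungL was above lungH with separate intervals, where the bulk CD44high cells were above CD44low. It was found in 20.7% of lungL and 2.35% of lungH cells, and in 4.46% and 1.16% after thinning to 500 counts. Axl had 6.89 (6.55 to 7.24) in lungH, 4.44 (4.16 to 4.72) in lungL and 3.43 (3.28 to 3.59) in lymphH. This is the order of the bulk means of these 3 groups. Mapk14 was highest in lungL at 1.20 (1.06 to 1.35), with 0.74 in lungH and 0.76 in lymphH. Bhlhe40 was highest in lungH at 1.57 (1.40 to 1.74), with 1.02 in lungL and 0.56 in lymphH, whereas bulk lung-derived CD44low cells exceeded CD44high cells. Gas1 was likewise highest in lungH at 0.55 (0.45 to 0.65). Nr2f2 had 1.41 in lungL and 1.18 in lungH with overlapping intervals, Ddr1 0.48 and 0.54, and Bhlhe41 2.47 and 2.78. In all, 5 of the 10 genes had their highest level in lungL, against 32.3% of the 9091 genes with at least 100 counts over the 3 libraries. Gas6 and Nr2f1 reached that minimum only through their 162 and 147 counts in lungL, so their place in this count is not independent of the filter.

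**Figure D4:**
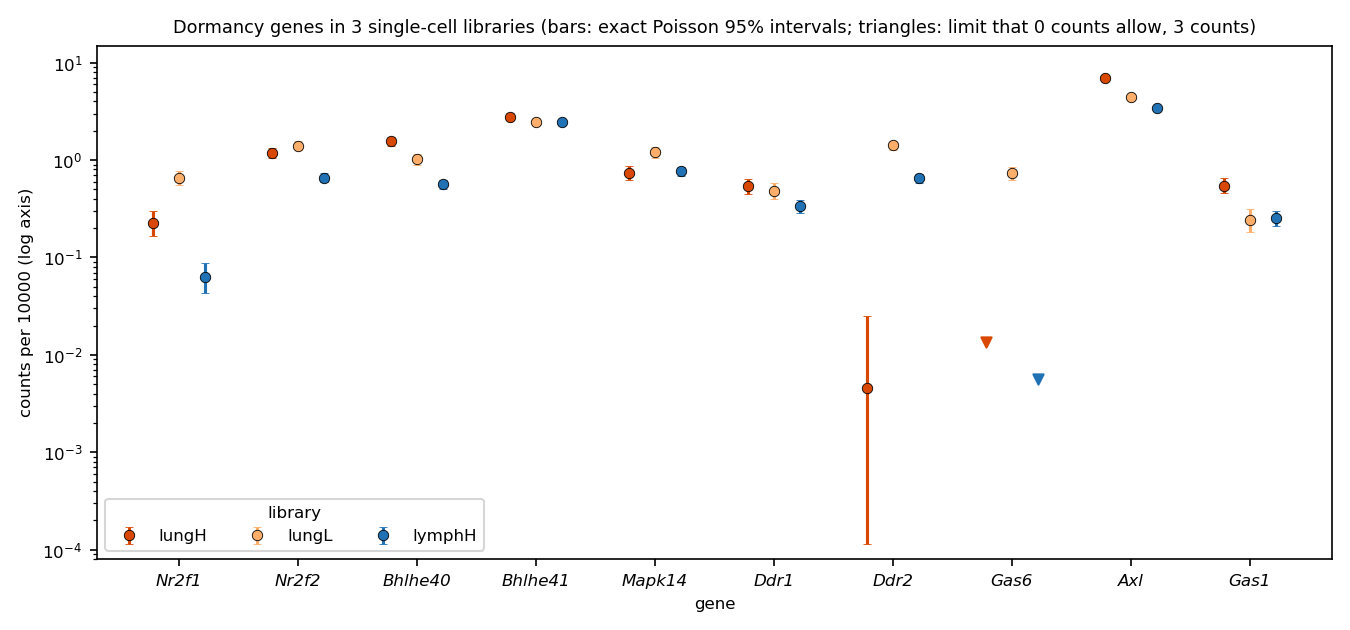
Counts per 10000 (log axis) of the 10 genes in lungH, lungL and lymphH, 1 library each, with exact Poisson 95% intervals as bars and triangles at the limit that 0 counts allow. Gas6 is seen in lungL alone, at 0.73 per 10000, and Ddr2 has 1 count in lungH against 314 in lungL.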

How the data were processed

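Bulk RNA-seq values were used as TPM, which the authors made with STAR on mm10 and RSEM on the GENCODE v21 annotation from modified SMART-seq2 libraries on a NextSeq 500. The total counts behind the deposited TPM values were not used here, so depth per library is unknown beyond the stated minimum, and the edgeR exact test of the study was not applied. Single-cell counts (SureCell 3′, ddSeq) were used as the authors deposited them, after Ddseeker and kallisto. Their columns carry no barcodes, so shared barcodes could not be counted. No 2 cells of different libraries held identical counts.

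Genes that reached 1 TPM in 2 or more libraries were fitted as log2(TPM + 1) with limma 3.58.1 (R 4.3.3; lmFit, contrasts.fit, eBayes with trend) with a mean per group, no replicate block and 7 residual degrees of freedom. Differences understate the change of low genes. On simulated data, 200 genes shifted by 3 on the log2 scale were recovered at 71% to 98.5% over the 13 comparisons, with 8 to 18 false calls. The shifted genes were drawn from those with a mean log2(TPM + 1) over 3, and all other genes had no group difference. These rates therefore do not cover lower genes, among them Gas6, Nr2f1, Gas1 and Bhlhe41, nor data where many genes differ. In a permutation of 2 against 2 libraries, p could not go below 0.333. Cells were kept with over 250 genes and under 10% mitochondrial counts, 1236 of 3623, 348 of 2808 and 2562 of 3297 barcodes in lungH, lungL and lymphH. Doublets were not removed, and Scrublet in scanpy 1.11.5 marked 1, 0 and 4 cells, so few that doublets may remain. Exact intervals have a 95% level, and a count of 0 is limited by 3 counts.

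The 10 genes and the gene lists were chosen with earlier results of these data known. Of each list, the 4 genes with the largest difference between lung and LN and BM were named, and for each called dormancy gene the 3 with the nearest profile, of which 1 gene is not reported here. Genes outside this rule that are named in passing were chosen after their values were seen. Alternatives covered the pseudocount, filters, scaling, fold minimum, libraries in the fit, replicate block, GC and length, and cell filters.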

Additional observations from a re-analysis of the deposited data

Results flagged for a closer look

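The CD44 difference (CD44high minus CD44low, log2(TPM + 1)) of 3 dormancy genes was not the same in lung as in the other organs by limma's test of the difference between organs. For Nr2f1 it was larger in lung than in LN by 3.23 ± 0.43 (adjusted p = 0.00052) and than in BM by 3.39 ± 0.43 (adjusted p = 0.00039). For Ddr2 it was lower in lung than in LN by -8.91 ± 0.74 (adjusted p = 2.1e-05) and than in BM by -7.71 ± 0.74 (adjusted p = 5.8e-05). For Gas6 it was lower in lung than in LN by -8.61 ± 0.33 (adjusted p = 1.4e-07) and than in BM by -8.80 ± 0.33 (adjusted p = 1.3e-07). These were 3 of the 10 genes in either test, where 19.5% (against LN) and 15.3% (against BM) of all genes were called. Fibroblast and epithelial marker sums differed between the lung groups and the other organs, and their part in these differences was not tested.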

How the results depend on the processing

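Of 2980 values of the 10 genes under other settings, 2789 kept their side of the threshold, among them 69 that changed sign without a call on either side, 125 lost a call, 65 gained one and 1 turned past it. Gas6, Ddr2 and Nr2f1 kept their calls between CD44high and CD44low cells of lung, and between lung and the other organs in that difference, in every fit run. The cause of the changes below was not tested.

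With a log2 fold change over 2 as well, the dormancy genes called against MFP numbered 1 in LN CD44low, 2 in BM CD44low, 3 in BM CD44high and 3 in lung-derived CD44high cells, and 3 for CD44 in lung, 2 for CD44 across organs and 3 for lung against LN and BM (4.79%, 7.16%, 7.67%, 13.5%, 11.3%, 1.02% and 12.7% of all genes). A pseudocount of 0.1 gave 4 in both LN groups (15% and 25.2%). With no filter on low values, 3 were called in BM CD44low, 3 in BM CD44high and 5 in lung-derived CD44low cells (11.2%, 12.9% and 23.2%). With only the groups compared in the fit, 5 were called in LN CD44high and 3 in BM CD44low cells (46.4% and 12.1%). Without the second BM CD44low and second LN CD44low libraries, chosen after seeing the data, 5 were called in LN CD44high cells and 5 in the CD44 difference between lung and LN (37.1% and 31.6%), and Bhlhe41 turned from 0.07 to -1.40 in BM CD44low cells against MFP (adjusted p = 0.049).

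Over the 14 fits that each left out 1 library, counts against MFP ranged from 1 to 3 in LN CD44low, 2 to 5 in LN CD44high, 2 to 5 in BM CD44low, 2 to 6 in BM CD44high, 3 to 8 in lung-derived CD44low and 2 to 6 in lung-derived CD44high cells. Counts for CD44 ranged from 0 to 0 in LN, 0 to 4 in BM, 3 to 6 in lung and 4 to 6 across organs. They ranged from 6 to 9 for lung against LN and BM, and from 3 to 4 and 3 to 6 for the CD44 difference in lung against LN and BM. The share of all genes called in the same fits ranged, in this order, over 6.73% to 17.9%, 11.9% to 30.1%, 11.8% to 31.97%, 14.4% to 33.8%, 29.3% to 51.4% and 23.7% to 42.8% against MFP. For CD44 it ranged over 0.0982% to 0.937%, 0.0528% to 15.6%, 14.5% to 37.5% and 6.26% to 31.6%, and for the last 3 over 48.7% to 65.6%, 8.25% to 26.9% and 6.68% to 20.6%. A group left with 1 library was assumed to vary like the others. The count moved by over 1.5 times without either MFP library for both BM groups and lung-derived CD44low cells, without the first for LN CD44low and the second for lung-derived CD44high cells. It did so without either library of lung-derived CD44low or BM CD44high cells in their own comparison with MFP, without the first lung-derived CD44high library, without either BM CD44low library for LN CD44high cells, without the second lung-derived CD44low library for CD44 in lung, and without the first BM CD44low library for CD44 in BM and its difference from lung.

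Replicate numbers did not pair the libraries, with correlations of deviations from -0.19 to 0.17 over 21 pairs of groups. With the replicate block, 45 of 130 values were called against 50 without it. In the single-cell libraries, 5 of the 10 genes were highest in lungL under all 6 alternatives, while 29 of their levels moved beyond the counting interval and 151 did not. With the mean of per-cell values, Ddr1 in lymphH went from 0.335 to 0.167 per 10000 and Axl from 3.43 to 2.09. Both lung groups rest on 2 libraries each, and since depth per bulk library is unknown, no counting error can be given for genes near 1 TPM.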
